A study of Homo sapiens with 12 samples.

Results

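The genes described here make ribosomes. They are 48 genes of RNA polymerase I, of the modification of ribosomal RNA and of the assembly of the small and large ribosomal subunits. They were chosen by name from knowledge of the pathway, with earlier results of these data known. All 48 had a probe on the array. A gene was tested where at least 1 of its probes was detected at a detection p under 0.01 on 3 or more of 12 arrays, and the probe with the highest mean stood for the gene. This left 43 of the 48 genes, out of 11059 genes and 14051 probes tested in the series.

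The RNA came from CHRF288-11 cells, an established human megakaryoblastic cell line, hybridized to Illumina BeadChips. The groups were cells given recombinant Wnt3a at 150 ng/mL, cells given recombinant Wnt5a at 1200 ng/mL, cells given both proteins at those doses, and untreated cells, with 3 arrays per group. All cells, untreated ones included, had spent 16 h in medium without serum before the treatment, and the labels give 8 h for every array. The labels name no vehicle for the untreated cells, and the series describes the 3 arrays of a group as biological replicates of this single line. The arrays lay on 2 chips: chip 1 held 2 Wnt3a, 2 Wnt5a and 2 untreated arrays, and chip 2 held 1 array of each of these groups and all 3 combination arrays. The chip was therefore a term of the main fit, and a within-chip comparison with the combination can be made on chip 2 only. Mean signals ran between 312.1 and 347.5 on the combination arrays and between 315.5 and 378.3 on the untreated arrays, 12511 to 14088 probes were detected per array, and replicates of a group correlated at 0.994 to 0.997. Of 17 megakaryocyte and platelet markers, 15 were detected on all 12 arrays and 2, PF4 and PPBP, on none. None of 7 epithelial and fibroblast markers was detected on all arrays, though KRT18 was detected on 6 and EPCAM on 1. Some markers of other blood cells were detected on all 12 arrays. Among 8 monocyte and granulocyte markers this was LYZ, with CD14 on 5 arrays and FCGR3B on 1. Among 6 erythroid markers these were HBB, ALAS2, KLF1 and EPOR.

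Ribosomes are built in the nucleolus. RNA polymerase I transcribes a long precursor that holds most of the ribosomal RNA. Small nucleolar ribonucleoproteins (snoRNPs) of the box C/D class methylate this RNA, those of the box H/ACA class convert uridines to pseudouridine, and large sets of assembly factors fold and cut the RNA and load it with ribosomal proteins into the small and large subunits. The demand for ribosomes follows cell growth, and many of these genes are known targets of the transcription factor MYC, which with its partner MAX binds the E-box, CACGTG.

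The promoters of these genes often held that sequence close to the gene start. RefSeq promoter windows (GRCh38.p14, 250 bases before to 50 bases after the start) were available for 40 of the 48 genes, and 17 of the 40 (42.5%) held CACGTG in at least 1 window, against 12.9% of 8038 other tested genes and 8.77% of all 27305 genes with a window. CACGTG is its own reverse complement, so both strands were searched at once. Of the 18 E-boxes found, 16 (88.9%) began within 50 bases of the start, against 37% of the 1264 found in the other tested genes. The variant letters CACGCG or CGCGTG, which do not overlap the canonical motif, were in 37.5% of the listed genes with a window and in 22.5% of the other tested genes. A match is a description of the letters and says nothing of binding in these cells. The windows below run from 50 bases before to 50 bases after the start, with the E-box in capitals. They are shown for 4 genes that fell in a comparison with untreated cells and for FBL and GNL3, which carry the same letters at a like place and passed no test.
WDR43 (GRCh38.p14, chr2:28894617-28894716, plus strand): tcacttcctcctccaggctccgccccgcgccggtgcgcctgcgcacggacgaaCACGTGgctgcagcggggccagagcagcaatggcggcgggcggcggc
BYSL (chr6:41921449-41921548, plus strand): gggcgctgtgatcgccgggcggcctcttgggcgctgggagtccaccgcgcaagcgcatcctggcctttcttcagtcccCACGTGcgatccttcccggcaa
MRTO4 (chr1:19251755-19251854, plus strand): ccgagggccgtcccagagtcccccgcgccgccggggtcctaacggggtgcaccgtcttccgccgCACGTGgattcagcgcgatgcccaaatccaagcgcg
DDX21 (chr10:68956597-68956696, plus strand): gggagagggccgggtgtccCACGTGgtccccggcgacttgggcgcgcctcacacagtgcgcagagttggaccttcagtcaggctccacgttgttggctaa
FBL (chr19:39846330-39846429, minus strand): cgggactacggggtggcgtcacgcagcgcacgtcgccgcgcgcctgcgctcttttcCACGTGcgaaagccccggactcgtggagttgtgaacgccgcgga
GNL3 (chr3:52685982-52686081, plus strand): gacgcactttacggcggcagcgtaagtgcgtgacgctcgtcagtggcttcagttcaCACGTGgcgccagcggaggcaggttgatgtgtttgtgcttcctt
The E-box began 3 bases after the start in WDR43, 28 in BYSL, 14 in MRTO4, 6 in FBL and 6 in GNL3, and 31 bases before the start used here in DDX21.

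**Figure D1:**
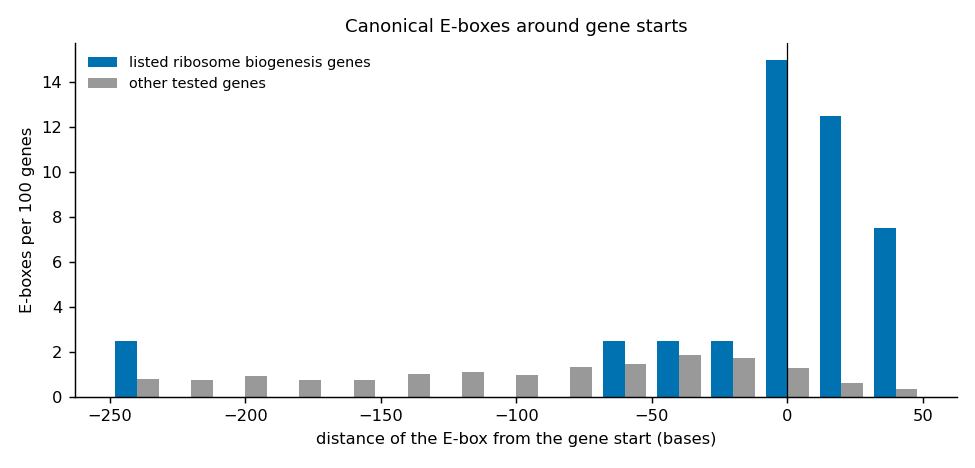
Number of canonical E-boxes per 100 genes (vertical axis) by the distance of the first base of the E-box from the gene start in bases (horizontal axis, bins of 20 bases, negative before the start), for the 40 listed genes with a promoter window and for 8038 other tested genes. The bars of the listed genes stand highest in the 3 bins between -10 and 50, at 15, 12.5 and 7.5 per 100 genes.

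A minority of these genes fell with Wnt5a, alone or with Wnt3a, and none passed the test with Wnt3a alone. The list was chosen with earlier results of these data known, so the shares below describe it and are no independent test. At an adjusted p under 0.05 in limma's moderated test, adjusted over all tested probes, 8 of 43 members fell and none rose with Wnt5a against untreated cells (18.6% of members, where 2.33% of all probes fell, 2.92% rose and 5.25% were called either way). With both proteins 7 of 43 fell and none rose (16.3%, where 3.32% of all probes fell, 4.45% rose and 7.77% were called either way). With Wnt3a alone 0 of 43 passed, where 1.52% of all probes were called, 0.569% lower and 0.947% higher. At an unadjusted p under 0.05 in the same test, 10 members were lower with Wnt3a (5.94% of all probes), 16 with Wnt5a (8.53%) and 17 with both (11.0%). At that level 0 members were higher in any of the 3, where 6.20%, 8.93% and 11.6% of all probes were higher in the same order. No member passed when the combination was set against Wnt3a (4.61% of probes called) or against Wnt5a (0.121%), or when Wnt3a was set against Wnt5a (5.90%). An F test across the 4 groups called 8 members, 18.6% of 43, against 8.80% of all probes.

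The fitted difference was below 0 for 32 members with Wnt3a, 38 with Wnt5a and 38 with the combination, out of 43 and each against untreated cells. Over all probes the share below 0 was 50.6%, 51.8% and 52.6% in the same order. The median log2 difference of the members was -0.074 with Wnt3a, -0.124 with Wnt5a and -0.166 with both, against -0.001, -0.005 and -0.010 over all tested probes. After adjustment for the chip, all 3 arrays of the treated group lay below all 3 untreated arrays for 16 members with Wnt3a, 20 with Wnt5a and 22 with both, where the same was true of 10.2%, 12.6% and 17.3% of all probes. The 22 include POLR1B and NOC2L, which were detected on 0 combination arrays and on 0 and 1 untreated arrays, so their order there is between values mostly below detection. The changes were small: the largest fall that passed was 1.47-fold, for NOLC1 with both proteins. In these bulk samples fewer cells of a kind and less RNA per cell cannot be told apart.

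**Figure D2:**
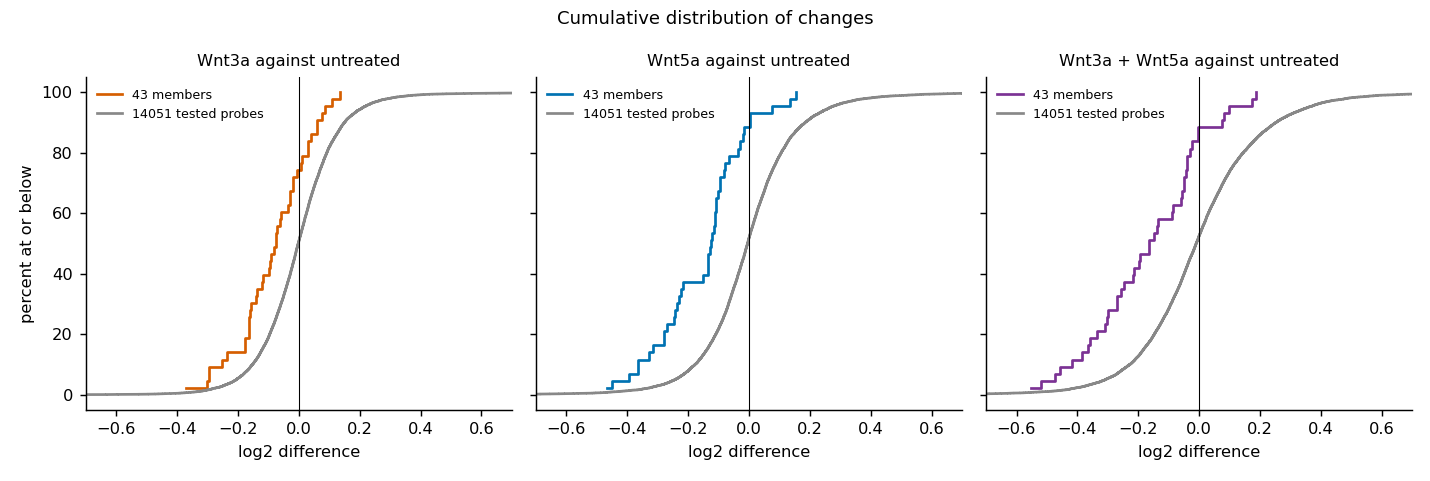
Cumulative distributions of the fitted log2 difference (horizontal axis) for the 43 members (coloured lines) and all 14051 tested probes (grey lines), for Wnt3a, Wnt5a and the combination, each against untreated cells; the vertical axis is the percent of genes or probes at or below a value. The members' lines lie left of the grey lines in all 3 panels, with medians of -0.074, -0.124 and -0.166.

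Polymerase I genes gave few values. POLR1A, which encodes the largest catalytic subunit, was detected on 0 arrays, as were the 4 probes of TCOF1, the nucleolar protein treacle that works with polymerase I. POLR1B, the other large catalytic subunit, just met the filter with 3 arrays: 1 Wnt3a array and 2 Wnt5a arrays, with 0 combination and 0 untreated arrays, so that its levels in those last groups are bounds and no fold is given. POLR1C, a subunit shared with RNA polymerase III, measured 10.51, 10.40 and 10.40 with Wnt3a, 10.39, 10.36 and 10.29 with Wnt5a, 10.44, 10.35 and 10.30 with both and 10.51, 10.35 and 10.47 in untreated cells (log2 normalized intensity, the scale of all levels here). Each treated group overlapped the untreated arrays for POLR1C, while the Wnt3a arrays lay above the Wnt5a arrays, and its log2 difference with Wnt5a was -0.10, with a 95% interval from -0.24 to 0.05. UBTF, the factor that binds the ribosomal DNA promoter and opens its chromatin, had the largest positive difference among the members with Wnt5a, 0.16 with an interval from -0.02 to 0.34, and differed by -0.03 with both. None of the 3 tested polymerase I genes passed in any comparison.

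Of 7 tested snoRNP genes, NOLC1 and DKC1 passed, and NOLC1 had the most negative difference of all members with Wnt5a and with both. NOLC1 encodes the nucleolar protein that accompanies both classes of snoRNP. It measured 6.96, 6.78 and 6.99 with Wnt3a, 6.82, 6.84 and 6.58 with Wnt5a, 6.75, 6.77 and 6.75 with both and 7.36, 7.07 and 7.21 in untreated cells. Every treated array lay below every untreated array. The log2 difference was -0.47 ± 0.08 (SE) with Wnt5a, a 1.38-fold fall (adjusted p = 0.00483), and -0.55 ± 0.09 with both, a 1.47-fold fall (adjusted p = 0.0041). With Wnt3a it was -0.30 ± 0.08, which did not pass (adjusted p = 0.102). Without background correction the differences of NOLC1 were -0.30 with Wnt5a and -0.36 with both, and in the authors' value table -0.20 and -0.24, all past the threshold. The combination call was lost without Untreated 1 (adjusted p = 0.0857).

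DKC1 encodes dyskerin, the pseudouridine synthase of box H/ACA snoRNPs. Its probe gave 11.57, 11.43 and 11.44 with Wnt3a, 11.38, 11.28 and 11.35 with Wnt5a, 11.25, 11.32 and 11.27 with both and 11.59, 11.68 and 11.58 in untreated cells. Every treated array of DKC1, Wnt3a included, lay below every untreated array. The Wnt5a and combination arrays also lay below every Wnt3a array. DKC1 fell by 0.28 ± 0.06 on the log2 scale with Wnt5a (adjusted p = 0.0266) and by 0.34 ± 0.07 with both (adjusted p = 0.0184). The call with Wnt5a was lost without 5 of the arrays taken 1 at a time (Wnt5a 2 and 3 and each untreated array). The call with both was lost without Wnt3a + Wnt5a 3 or Untreated 1. Both calls of DKC1 were also lost with no filter on dim probes and with only the 2 groups compared.

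The other snoRNP members did not pass. NOP56, a core protein of box C/D snoRNPs, had a log2 difference of -0.33 ± 0.10 with Wnt5a (adjusted p = 0.0734) and -0.39 ± 0.11 with both (adjusted p = 0.0558). A further NOP56 probe of nearly the same mean gave -0.15 with Wnt5a and -0.24 with both. A dimmer one gave -0.08 and -0.18, and neither probe passed. FBL, fibrillarin, the methyltransferase of box C/D snoRNPs, differed by 0.00 with Wnt5a, with an interval from -0.15 to 0.15, and by -0.04 with both. NOP58, the partner of NOP56 in that core, differed by -0.12 with Wnt5a and 0.19 with both, and neither passed. GAR1 and NHP2, small core proteins of box H/ACA snoRNPs, differed by -0.23 (adjusted p = 0.0567) and -0.14 with Wnt5a and by -0.19 and -0.14 with both. The median of the 7 snoRNP members was -0.14 with Wnt3a, -0.23 with Wnt5a and -0.19 with both.

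Among 13 tested small subunit factors, WDR43 and BYSL fell in both comparisons that passed. WDR43, the counterpart of yeast Utp5 in the complex that binds the nascent ribosomal RNA, measured 6.43, 6.38 and 6.35 with Wnt3a, 6.20, 6.43 and 6.23 with Wnt5a, 6.15, 6.39 and 6.11 with both and 6.65, 6.72 and 6.67 in untreated cells. All 9 treated arrays lay below all 3 untreated arrays. The log2 difference was -0.39 ± 0.08 with Wnt5a (adjusted p = 0.0138) and -0.52 ± 0.09 with both (adjusted p = 0.0063). With Wnt3a it was -0.30 ± 0.08 and missed the threshold (adjusted p = 0.118). In the authors' value table the differences of WDR43 were -0.14 with Wnt5a and -0.17 with both, and without background correction -0.22 and -0.29. All were past the threshold. The Wnt5a call was lost without Wnt5a 3 or Untreated 2, and the call with both with only the 2 groups compared.

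BYSL encodes bystin, needed for late processing of the small subunit's RNA. Its levels were 9.35, 9.43 and 9.32 with Wnt3a, 9.23, 9.27 and 9.21 with Wnt5a, 9.11, 9.23 and 9.06 with both and 9.56, 9.70 and 9.55 in untreated cells, again with no overlap between treated and untreated arrays. BYSL fell by 0.36 ± 0.07 on the log2 scale with Wnt5a (adjusted p = 0.00891) and by 0.46 ± 0.08 with both (adjusted p = 0.00539). The difference with Wnt3a was -0.24 ± 0.07, with an adjusted p of 0.151, and it passed without background correction (adjusted p = 0.0485) and in the authors' value table (adjusted p = 0.0388). The calls were lost without Wnt5a 3 (Wnt5a, adjusted p = 0.0508) and without Untreated 1 (both, adjusted p = 0.0525). With only the 2 groups compared the call with both was also lost (adjusted p = 0.112).

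The other 11 small subunit factors did not pass, and the median of all 13 was 0.01 with Wnt3a, -0.11 with Wnt5a and -0.08 with both. RRP12, a factor of subunit export, differed by -0.22 with Wnt5a and -0.17 with both. TSR1, a GTPase-like factor of the late cytoplasmic subunit, differed by -0.12 with Wnt5a and -0.30 with both (adjusted p = 0.0916). The largest positive differences were 0.14 with Wnt3a for NOB1, the endonuclease that makes the last cut of the small subunit's RNA, 0.08 with Wnt5a for UTP15, and 0.17 with both for WDR75, which like UTP15 belongs to the complex of WDR43. NOP14, NOC4L, HEATR1, DDX10, PNO1 and NAT10, the acetyltransferase of ribosomal RNA, lay between -0.15 and -0.02 with Wnt5a and between -0.25 and 0.07 with both. RRP9 was detected on 1 array and WDR3 and UTP20 on 0, so they were not tested.

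Large subunit factors were all below 0 with Wnt5a: 15 of 15 had a negative difference, with a median of -0.22, and 3 passed. The median was -0.09 with Wnt3a and -0.26 with both, where 3 passed as well. WDR12, which with PES1 and BOP1 forms the PeBoW complex of large subunit maturation, measured 8.89, 8.995 and 9.07 with Wnt3a, 8.89, 8.82 and 8.82 with Wnt5a, 8.82, 8.79 and 8.88 with both and 9.05, 9.27 and 9.16 in untreated cells. As measured, the Wnt5a and combination arrays lay below the untreated arrays, while Wnt3a overlapped them. After adjustment for the chip the Wnt3a arrays of WDR12 also lay below the untreated ones. WDR12 fell by 0.32 ± 0.06 with Wnt5a (adjusted p = 0.0119) and its difference with both, -0.26 ± 0.07, did not pass (adjusted p = 0.0533). The Wnt5a call was lost without Wnt5a 3 (adjusted p = 0.0736) or Untreated 2 and with only the 2 groups compared, and the combination passed in 6 of 23 alternatives, with an adjusted p of 0.0143 in the authors' value table. Its second probe gave -0.22 with Wnt5a and -0.22 with both, neither past the threshold. BOP1 and PES1 did not pass: BOP1 differed by -0.27 with Wnt5a (adjusted p = 0.0633), and PES1, the most negative member of its step with both, by -0.48 with an interval from -1.01 to 0.06.

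NOP16, a nucleolar protein of early large subunit particles, passed with Wnt5a against untreated cells. It measured 7.22, 6.93 and 7.21 with Wnt3a, 6.94, 6.84 and 6.52 with Wnt5a, 7.05, 6.84 and 7.11 with both and 7.33, 7.17 and 7.16 in untreated cells. The 3 Wnt5a arrays and the 3 combination arrays lay below the untreated arrays. The Wnt5a arrays overlapped the Wnt3a and combination arrays. The log2 difference was -0.45 ± 0.11 with Wnt5a (adjusted p = 0.0351), -0.31 ± 0.13 with both (adjusted p = 0.17) and -0.10 ± 0.11 with Wnt3a (adjusted p = 0.812). Wnt3a against Wnt5a differed by 0.35 ± 0.11 for NOP16 (adjusted p = 0.0912), the smallest adjusted p of a member in that comparison. The Wnt5a difference of NOP16 was -0.19 in the authors' value table and -0.29 without background correction. Its call was lost without Wnt5a 2 or 3, without each untreated array in turn and without the chip term. It was also lost with no filter on dim probes and with only the 2 groups compared.

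RRS1, which helps place an RNA and protein module in the early large subunit, measured 8.46, 8.38 and 8.37 with Wnt3a, 8.26, 8.39 and 8.32 with Wnt5a, 8.30, 8.27 and 8.31 with both and 8.53, 8.59 and 8.58 in untreated cells. No treated array reached an untreated one. RRS1 fell by 0.25 ± 0.06 with Wnt5a (adjusted p = 0.0299) and by 0.30 ± 0.07 with both (adjusted p = 0.0185). The Wnt5a call was lost without any 1 of Wnt5a 1, 2 and 3 and Untreated 2 and 3, and the call with both without Untreated 1. Both calls of RRS1 were also lost with no filter on dim probes and with only the 2 groups compared.

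MRTO4 and PPAN passed with the combination. MRTO4, which holds the place of the ribosomal stalk protein during assembly, measured 7.65, 7.57 and 7.46 with Wnt3a, 7.46, 7.45 and 7.29 with Wnt5a, 7.28, 7.33 and 7.30 with both and 7.58, 7.75 and 7.59 in untreated cells. Its Wnt5a and combination arrays lay below every untreated array, and the log2 difference was -0.24 ± 0.07 with Wnt5a (adjusted p = 0.0863) and -0.36 ± 0.09 with both (adjusted p = 0.025). In the authors' value table the difference of MRTO4 with both was -0.19 and past the threshold. The call was lost without Wnt3a + Wnt5a 1 or 3, Wnt3a 1 or Untreated 1, with no filter on dim probes and with only the 2 groups compared (adjusted p = 0.215, the highest of its 23 alternatives). PPAN, the human counterpart of the yeast assembly factor Ssf1, measured 7.03, 6.93 and 6.97 with Wnt3a, 6.56, 6.95 and 6.75 with Wnt5a, 6.88, 6.80 and 6.79 with both and 7.23, 7.02 and 6.84 in untreated cells. As measured, its combination arrays overlapped the untreated ones and lay below the Wnt3a arrays. The fit with the chip term put the combination -0.36 ± 0.09 from untreated cells (adjusted p = 0.0337), and within chip 2 the difference was -0.41. Without the chip term it was not called, nor with the chip as a random block, nor with the replicate number as a block beside the chip. Nor was it called without any 1 of 6 arrays, Untreated 1 among them (adjusted p = 0.295). The call was also lost with no filter on dim probes and with only the 2 groups compared.

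The remaining large subunit factors passed no test. NOP2, a methyltransferase of the large subunit's RNA, differed by -0.24 with Wnt5a (adjusted p = 0.0739) and -0.27 with both (adjusted p = 0.0615). EBNA1BP2, DDX18, GRWD1, NOC3L and GNL3, the last known as nucleostemin, lay between -0.14 and -0.03 with Wnt5a and between -0.21 and 0.08 with both. URB2 had the most negative difference of all members with Wnt3a, -0.37 ± 0.10 (adjusted p = 0.12), at a level detected on 6 of 12 arrays. NOC2L was detected on 2 Wnt3a arrays, 1 Wnt5a array, 0 combination arrays and 1 untreated array, so its level in the combination is a bound.

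Of 5 nucleolar proteins that act at several steps, DDX21 passed. DDX21, an RNA helicase that takes part in polymerase I transcription and in ribosomal RNA processing, measured 10.07, 10.22 and 10.20 with Wnt3a, 9.86, 9.88 and 10.00 with Wnt5a, 9.88, 10.17 and 9.93 with both and 10.14, 10.37 and 10.32 in untreated cells. As measured, the Wnt5a arrays lay below all untreated and all Wnt3a arrays, and the other groups overlapped the untreated one. After adjustment for the chip the Wnt3a arrays of DDX21 also lay below the untreated ones. DDX21 fell by 0.36 ± 0.08 with Wnt5a (adjusted p = 0.0203) and differed by -0.20 ± 0.09 with both (adjusted p = 0.232). Its Wnt5a call was lost without any 1 of Wnt5a 1 and 3 and the 3 untreated arrays, and with no filter on dim probes. The nucleolar chaperones did not pass: NCL, nucleolin, differed by -0.07 with Wnt5a, with an interval from -0.23 to 0.10, and NPM1, nucleophosmin, by -0.08, with an interval from -0.22 to 0.05. The NPM1 probe carries that name in the platform annotation and the name CLEC2D in the deposited file, so its gene is uncertain. NPM3 and LYAR differed by -0.02 and -0.11 with Wnt5a and by -0.09 and -0.05 with both.

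**Figure D3:**
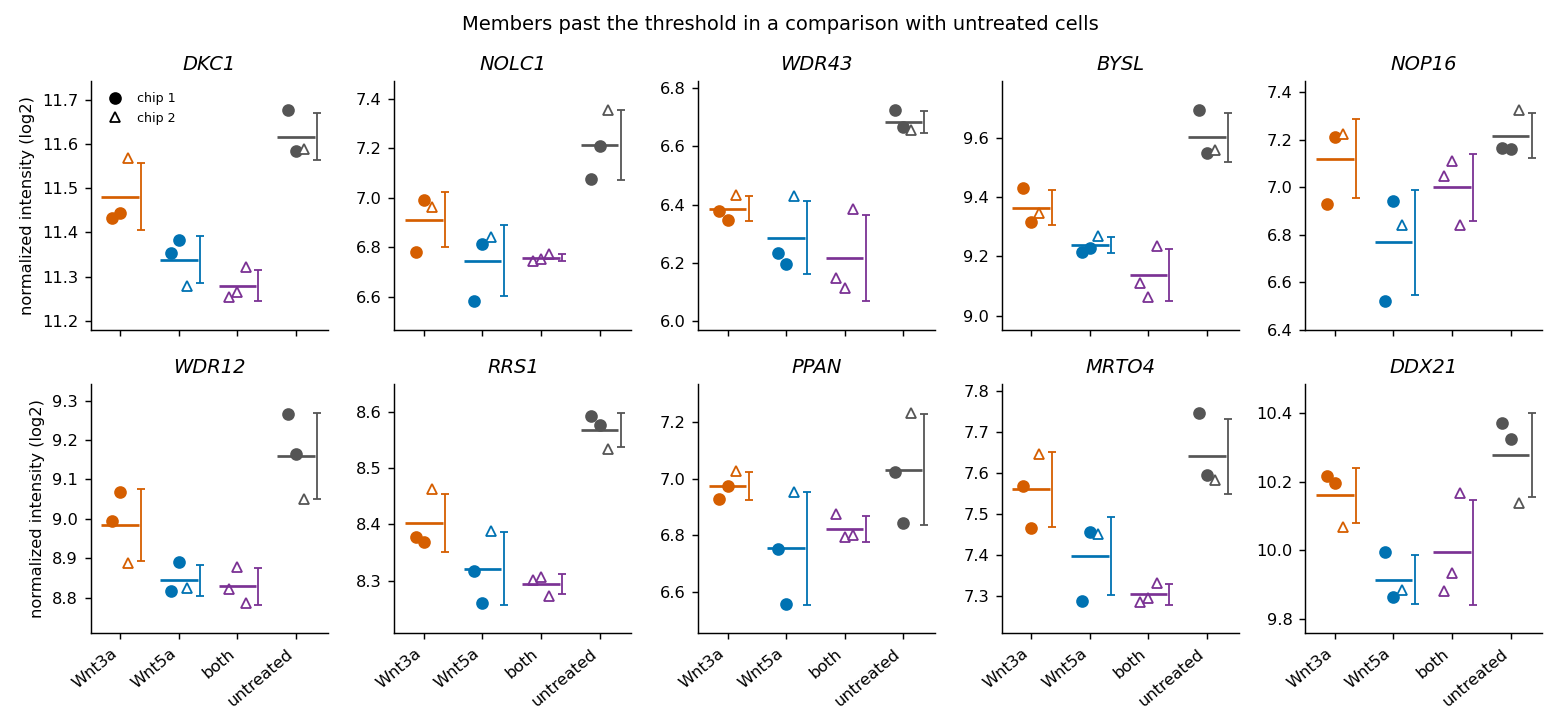
Log2 normalized intensity (vertical axis, a separate scale per panel) of the 10 members that passed in a comparison with untreated cells, on each of 12 arrays, by group; filled circles are chip 1, open triangles chip 2, horizontal lines group means and bars 1 SD (n = 3). In NOLC1, DKC1, WDR43, BYSL and RRS1 every treated array lies below every untreated array.

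**Figure D4:**
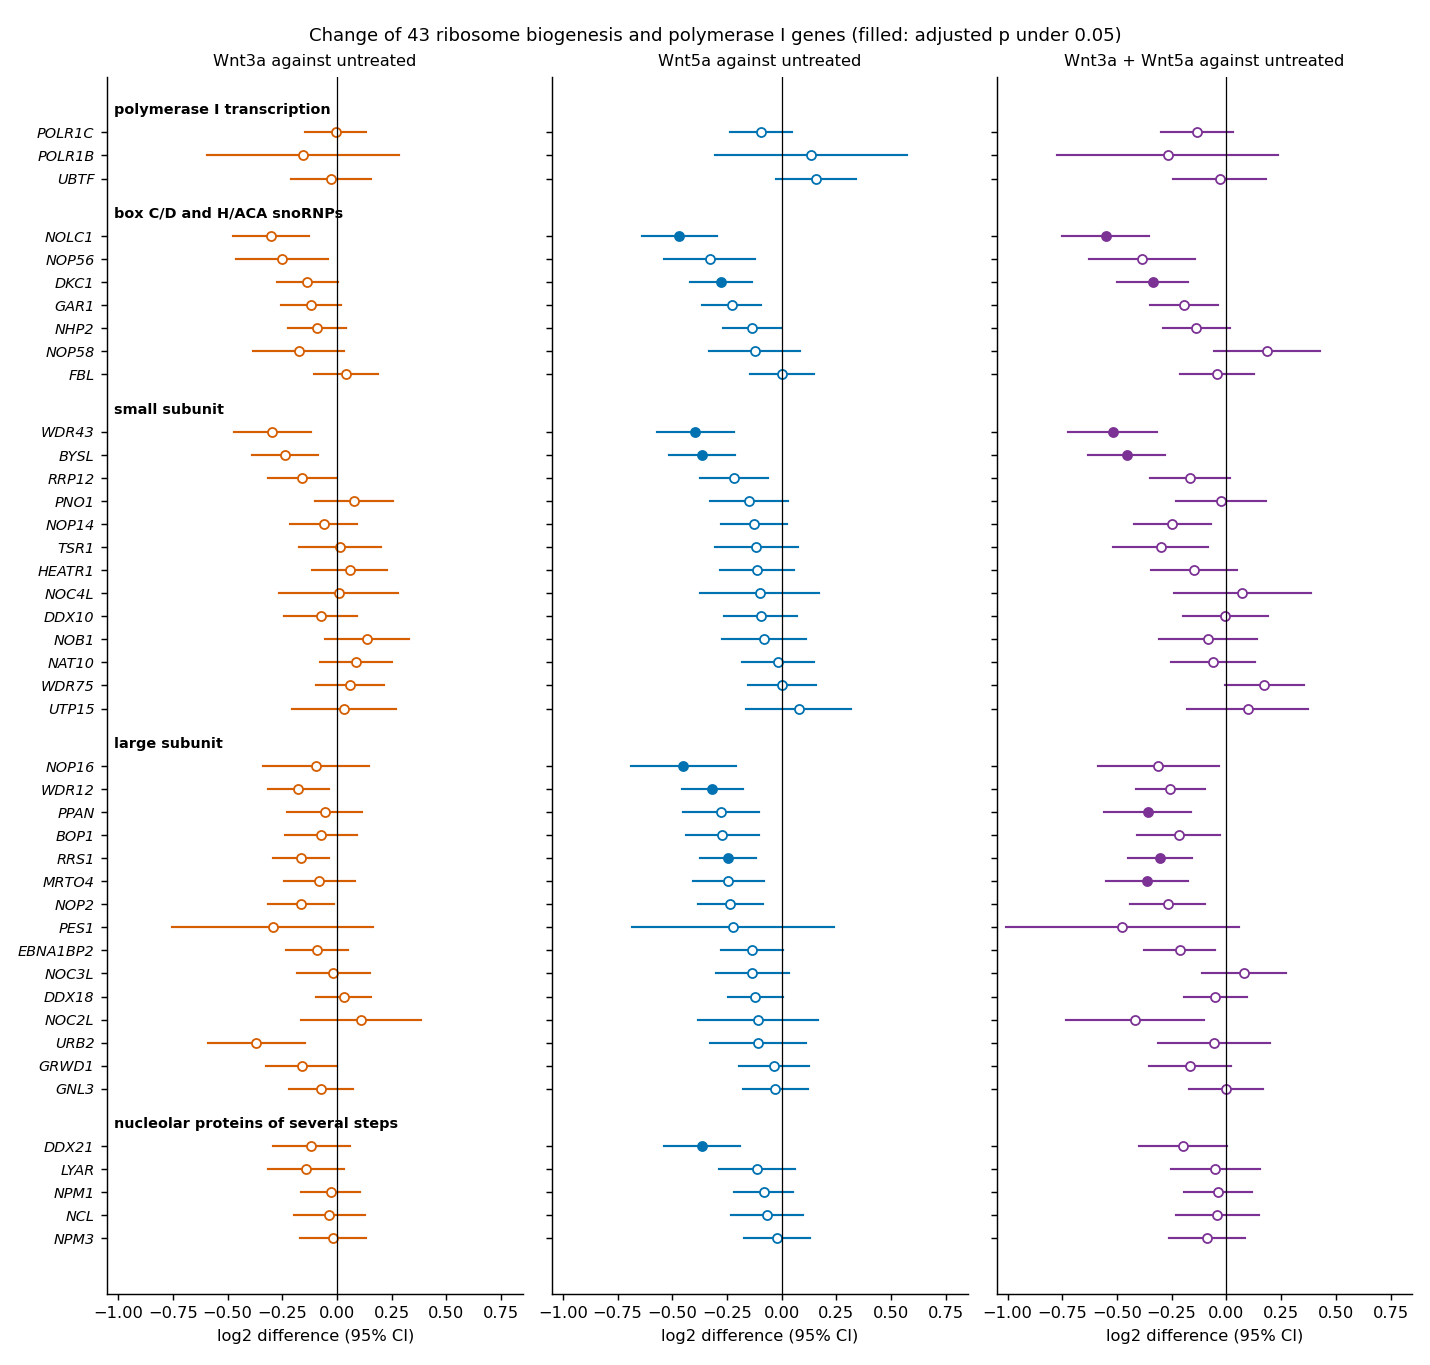
Fitted log2 difference (points) with its 95% confidence interval (lines) of 43 members, by step of ribosome biogenesis, for Wnt3a, Wnt5a and the combination, each against untreated cells; filled points passed at an adjusted p under 0.05. Filled points, 8 with Wnt5a and 7 with the combination, all lie left of 0, and the Wnt3a panel has none; POLR1B and NOC2L were below detection in whole groups.

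The differences within each chip are a description, since the called members were picked by a fit to these same arrays. Their sign within a chip is largely set by the call. For the 8 members called with Wnt5a, the difference ran between -0.48 and -0.26 on chip 1 and between -0.51 and -0.15 on chip 2, and all 8 were negative on both. For the 7 called with the combination, all were negative within chip 2, between -0.60 and -0.24, where 3 combination arrays met 1 untreated array. The median of all 43 members with Wnt5a was -0.16 on chip 1 and -0.13 on chip 2, with both -0.15 on chip 2, and with Wnt3a -0.08 on chip 1 and -0.10 on chip 2. The chip term itself passed the threshold for 0 members and for 104 of all probes. For 10 members with further tested probes, 11 of the 12 further probes had the same sign as the brightest with Wnt5a and 10 of 12 with both, and 0 of them passed.

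The number of calls rested on single arrays. For Wnt5a against untreated cells, leaving out 1 array at a time gave between 1 and 9 calls: 1 without Wnt5a 3, 2 without Untreated 2, and 5 without Untreated 1, Untreated 3 or Wnt5a 2. For the combination it gave between 1 and 8: 1 without Untreated 1 and 4 without Wnt3a + Wnt5a 3. With only the arrays of the groups compared, 4 members passed with Wnt5a and 1 with both, and with no filter on dim probes 4 and 3. The share of all probes called was not set beside these counts. Whether the members moved apart from all probes was therefore not tested.

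Whether Wnt5a went with lower levels in the presence of Wnt3a was asked with a comparison that shares no array with Wnt5a against untreated cells, although both share the chip term and the estimate of the spread. Combination against Wnt3a cells had a median of -0.10 over the members and -0.01 over all probes, and 34 of 43 members were below 0 (52.5% of probes). Of the 43 members, 31 (72.1%) were below 0 in both comparisons, against 34.5% of all probes. No member passed in the combination against Wnt3a, and at an unadjusted p under 0.05 in limma's test 10 were lower (10.9% of probes) and 2, NOP58 and URB2, higher (10.6% of probes). For the called members the differences in that comparison were -0.25 for NOLC1, -0.20 for DKC1, -0.22 for WDR43, -0.22 for BYSL, -0.30 for PPAN and -0.28 for MRTO4, with adjusted p between 0.0816 and 0.19, and -0.14 for RRS1 (adjusted p = 0.254) and -0.21 for NOP16 (adjusted p = 0.365). All of these but NOP16 were called with both against untreated cells, PPAN and MRTO4 only there. The same combination arrays enter this comparison, so the differences of those members here are no separate support. NOP58 differed by 0.36 ± 0.11 (adjusted p = 0.0855). WDR12 and DDX21, which had fallen by 0.32 and 0.36 with Wnt5a alone, differed by -0.08 and -0.08 here.

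**Figure D5:**
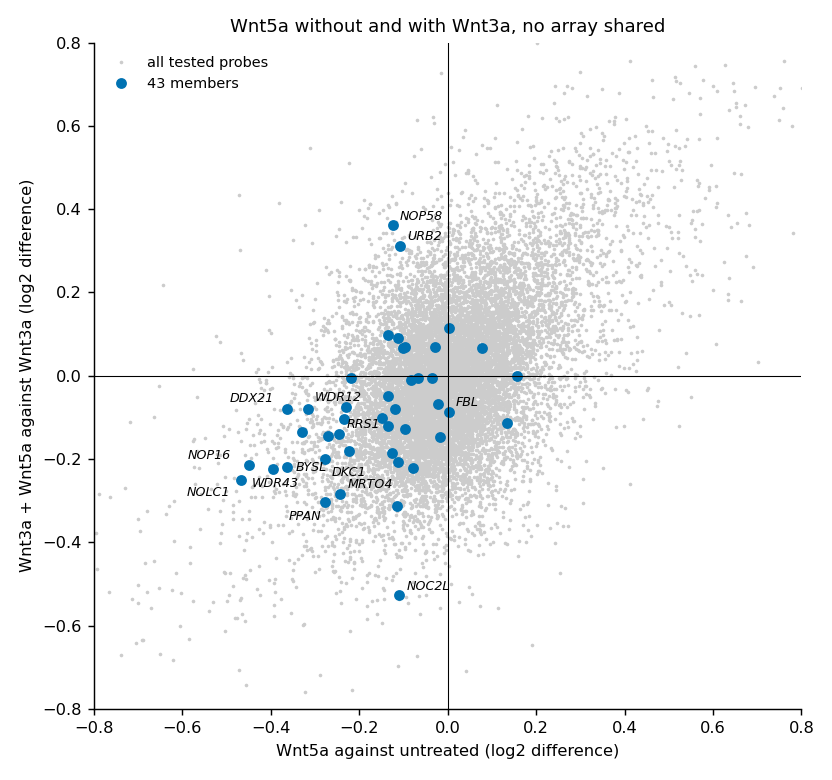
Fitted log2 difference of Wnt5a against untreated cells (horizontal axis) and of the combination against Wnt3a cells (vertical axis) for 43 members (blue) and all tested probes (grey; points beyond 0.8 are not drawn). Of the 43 members, 31 lie below 0 on both axes, and NOP58 and URB2 lie highest.

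The difference between these 2 effects of Wnt5a, the interaction of Wnt3a and Wnt5a, passed for 0 members and for 0 of all 14051 probes. Its median over the members was 0.08, against -0.003 over all probes, and 14 of 43 were below 0 (50.8% of probes). At an unadjusted p under 0.05 in limma's test 4 members had a positive interaction, NOP58, WDR12, URB2 and DDX21 (3.97% of all probes), and 0 a negative one (3.85%). Their sizes were 0.49 ± 0.15, 0.24 ± 0.10, 0.42 ± 0.15 and 0.28 ± 0.12 in that order, and the smallest adjusted p was 0.523. The test therefore did not separate the effect of Wnt5a alone from its effect beside Wnt3a for any member.

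Wnt3a and Wnt5a were also set against each other. Wnt3a minus Wnt5a had a median of 0.08 over the members and 0.01 over all probes, with 9 of 43 below 0 (47.4% of probes). No member passed, and at an unadjusted p under 0.05 in limma's test 11 members were higher with Wnt3a (8.65% of probes) and 2, UBTF and URB2, lower (9.34% of probes). So while 8 members passed with Wnt5a and 0 with Wnt3a, no single member was shown to differ between the 2 treatments. The combination against Wnt5a had a median of -0.03, with 24 of 43 below 0 (52.3% of probes), and the 95% interval lay within 0.5 of 0 for 39 members.

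A wider list of 137 ribosome biogenesis genes outside the members, of which 124 were tested, gave 1 that fell with Wnt3a, 2 with Wnt5a and 3 with the combination, and 1 that rose, with the combination. These are 0.806%, 1.61% and 2.42% of the list, against 0.569%, 2.33% and 3.32% of all probes called lower, and 0.806% against 4.45% called higher with the combination. Their median log2 difference was -0.02, -0.06 and -0.05, against -0.074, -0.124 and -0.166 for the members; that difference between the lists was not tested. EXOSC4, a ring subunit of the RNA exosome, which trims and degrades ribosomal RNA precursors, measured 7.90, 7.89 and 7.96 with Wnt3a, 7.83, 7.82 and 7.84 with Wnt5a, 7.74, 7.87 and 7.75 with both and 8.34, 8.19 and 8.38 in untreated cells. EXOSC4 fell by 0.39 ± 0.07 with Wnt3a (adjusted p = 0.0145), by 0.47 ± 0.07 with Wnt5a (adjusted p = 0.00157) and by 0.52 ± 0.08 with both (adjusted p = 0.00227), with no overlap between treated and untreated arrays. EXOSC5 and EXOSC7, of the same ring, fell by 0.29 and 0.26 with both. PAK1IP1, a large subunit factor, fell by 0.26 with Wnt5a, and DDX51, a helicase of large subunit maturation, rose by 0.42 with both.

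MYC measured 11.25, 11.16 and 11.18 with Wnt3a, 11.03, 11.01 and 10.88 with Wnt5a, 10.92, 10.94 and 10.91 with both and 11.39, 11.45 and 11.41 in untreated cells. MYC fell by 0.45 ± 0.06 with Wnt5a (adjusted p = 0.00103) and by 0.51 ± 0.07 with both (adjusted p = 0.00117), and with Wnt3a its difference was -0.22 ± 0.06 (adjusted p = 0.119). The related MYCN rose by 0.74 ± 0.07 with Wnt3a (adjusted p = 0.000192) and by 0.39 ± 0.08 with both (adjusted p = 0.0152). With Wnt5a MYCN did not pass, though its arrays, at 9.36, 9.595 and 9.43, lay above the untreated ones, at 9.19, 9.20 and 9.25. The part of MYC or MYCN in the members' levels was not tested. Among members with a promoter window, CACGTG was present in 4 of 8 that passed in a comparison with untreated cells and in 11 of 28 tested members that did not.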

How the data were processed

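The authors deposited a scanner intensity per probe and array that had not been normalized, per the file headers, for 48803 probes on 12 arrays. The deposited detection value is a fraction between 0 and 1 that rises with the signal; 1 minus it was taken as the detection p. A deposited value table holds log2 values whose quantiles are equal across arrays. It served as an alternative only. The submitters' processing notes name lumi without a version or role. Gene names came from the platform annotation for 27578 probes and otherwise from the file; of the 43 tested members, 4 took their name from the file.

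Signals were corrected by normexp with negative controls inferred from the detection p (offset 16), then quantile normalized and log2 transformed in limma 3.58.1 (R 4.3.3). The 14051 probes that reached a detection p under 0.01 on 3 or more arrays were fitted with 4 group means and the chip as a fixed term, moderated by eBayes (7 residual and 5.04 prior degrees of freedom), two-sided, with Benjamini-Hochberg adjustment over all tested probes and a threshold of 0.05. Signed differences are log2 values of the first named group minus the second. The script was tested on simulated data. The precision is limited by the 3 arrays per group. Residual correlations between arrays with the same replicate number ran between -0.407 and 0.406, over 0.1 in 9 of 18 pairs. Pairs with different numbers were not set beside them, so whether arrays of a number deviate together was not tested. The main fit did not use the numbers to pair arrays.

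The members, their steps, the wider pathway lists and the tests were chosen with earlier results of these data known. Members past the F test are described on every array, members past a pair comparison are named, and in each step the largest rise and fall may be named; in the wider list, up to 5 rises and 5 falls that passed. Other members are named to account for all 48. Promoter windows are RefSeq's (GRCh38.p14), searched with Python 3.11.15 and pandas 2.3.3. Alternatives were other background correction, normalization, filters, probe choice, chip handling, a replicate block, only the groups compared, a trended prior, the authors' table and leaving out each array. The lymphocyte marker list is not reported here.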

Additional observations from a re-analysis of the deposited data

How the results depend on the processing

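No direction of a called member was reversed under any of the 23 alternatives run, and the call of NOLC1 with Wnt5a held in all of them. Without background correction or in the authors' table the differences of NOLC1, WDR43, NOP16, PPAN and MRTO4 shrank. The cause was not tested, and the change over all probes was not set beside it. Counts of members past the threshold moved as follows. With Wnt3a against untreated, 0 became 1 without background correction and 1 in the authors' table (BYSL). With Wnt5a against untreated, 8 became 4 with no filter on dim probes and 4 with only the arrays of the groups compared, and 12 without background correction, in the authors' table and with an intensity-trended prior. With both against untreated, 7 became 11 without background correction, 12 in the authors' table, 3 with no filter, 11 with an intensity-trended prior and 1 with only the groups compared. With both against Wnt3a, 0 became 1 without background correction, 2 in the authors' table and 1 with the trended prior. With Wnt3a against Wnt5a, 0 became 2 in each of these 3 settings. The F test's 8 became 15 without background correction, 3 with no filter and 15 with the trended prior. Leaving out each array gave 0 to 0 calls with Wnt3a, 1 to 9 with Wnt5a, 1 to 8 with both, 0 to 2 for both against Wnt3a, 0 to 2 for Wnt3a against Wnt5a and 1 to 7 in the F test; the lowest F count came without Untreated 1. The cause of these moves was not tested, except that leaving out an array or a group leaves fewer samples. The share of all probes called was not set beside these counts either.

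Medians of the members in the authors' table were -0.044 with Wnt3a, -0.088 with Wnt5a and -0.098 with both against untreated, -0.070 for both against Wnt3a and 0.051 for Wnt3a against Wnt5a. Without background correction they were -0.128 with both against untreated and -0.074 for both against Wnt3a. With no filter they were -0.143 with both against untreated and -0.0037 for both against Wnt5a, which was -0.008 with the chip as a random block. The mean of a member's probes gave an interaction median of 0.042. Leaving out each array, the medians ran between -0.0991 and -0.0679 with Wnt3a, -0.152 and -0.1175 with Wnt5a and -0.1964 and -0.1274 with the combination (all against untreated), between -0.1124 and -0.0692 for both against Wnt3a, between -0.0499 and -0.0007 for both against Wnt5a, between 0.0769 and 0.1011 for Wnt3a against Wnt5a and between 0.0556 and 0.0992 for the interaction.

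The replicate number was also fitted as a block beside the chip term, though the labels do not say what arrays of a number share. This fit called 11 members with Wnt5a, 8 with both against untreated and 9 in the F test. It gave a median of -0.0117 for both against Wnt5a. Among the named calls it ended that of PPAN with both.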

Other observations

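In the wider list, Wnt3a against Wnt5a called 2 of 124 tested genes lower (1.61%) and 3 higher (2.42%). Over all probes these shares were 3.32% and 2.58%. The combination against Wnt3a called 0 lower and 3 higher (2.42%), where 1.84% and 2.78% of all probes were called. Each share of the list was below that of all probes. Among these calls were the polymerase I factors RRN3 and POLR1F, picked here after their values were seen. RRN3, the initiation factor that brings RNA polymerase I to its promoter, measured 9.16, 9.21 and 8.9985 with Wnt3a, 8.78, 8.80 and 8.69 with Wnt5a, 9.19, 9.01 and 9.11 with both and 8.82, 8.83 and 8.85 in untreated cells. The Wnt3a and combination arrays lay above all the others, and Wnt3a against Wnt5a differed by 0.36 ± 0.07 (adjusted p = 0.0112), while the difference with Wnt3a against untreated was 0.29 ± 0.07 (adjusted p = 0.0859). POLR1F, a stalk subunit of the polymerase, was 0.42 ± 0.08 higher with both than with Wnt3a (adjusted p = 0.016) and differed by -0.29 ± 0.07 between Wnt3a and Wnt5a (adjusted p = 0.0362).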
